A study of Mus musculus with 30 samples.

Results

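The 10 genes described here are widely used readouts of canonical Wnt signalling: Axin2, Nkd1, Notum, Dkk1, Lgr5, Lef1, Tcf7, Tcf7l1, Sp5 and Cdx1. They were chosen by symbol, and all 10 were found among the 55421 genes of the deposited count table and passed the filter on low counts, which kept 19868 genes. Lgr5 passed through 1 group only, the treated PDS5AB cells, where every library held at least 10 counts, so its presence among the tested genes already reflects that group.

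The data are 30 RNA-seq libraries of mouse E14 embryonic stem cells (XY, 129P2/Ola background), in 10 groups of 3. All 5 lines carry Tir1, a plant protein that directs proteins fused to an auxin-inducible degron (AID) to the proteasome when auxin is present. The TIR1 line has no fusion. In the PDS5AB line both PDS5A and PDS5B are AID-tagged, and in the WAPL line WAPL is. The PDS5AB-NIPBL line combines PDS5A-AID and PDS5B-AID with NIPBL-FKBP and RAD21-Halo. The WAPL-NIPBL line combines WAPL-AID with NIPBL-FKBP and RAD21-Halo, and both are called the combined lines. Cohesin is the ring-shaped complex that folds chromatin into loops; NIPBL, WAPL and the PDS5 proteins regulate it, and RAD21 is one of its subunits. Each line was sampled untreated and after 24 h in 500 µM auxin, to which 500 nM dTAG-13, the ligand of the FKBP degron, was added in the combined lines. The degrons act on protein, so transcript counts give no check of depletion. Each genotype is represented by 1 named line, so effects of the genotype and of that line cannot be told apart, and no TIR1 group received dTAG-13.

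In canonical Wnt signalling, a Wnt ligand bound to its Frizzled and LRP receptors stops the destruction complex of Axin, APC and GSK3 from marking beta-catenin for degradation. Beta-catenin then enters the nucleus and binds TCF/LEF factors, which turn on target genes, several of which encode feedback inhibitors of the same pathway. In mouse embryonic stem cells the pathway relieves repression by TCF7L1 and helps to hold the naive state. The culture medium of all 10 groups contained leukemia inhibitory factor, the MEK inhibitor PD0325901 and CHIR-99021, an inhibitor of GSK3 that activates the pathway below the receptor, per the labels' protocols. No group was grown without it.

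Total counts were 19632704 to 45539021 fragments per library. Libraries were placed in 3 runs. The first held both PDS5AB groups and untreated TIR1 (numbers 1 to 21) and the second the WAPL and combined lines (25 to 42). Auxin-treated TIR1 (43 to 45) was the third. Numbers 42 and 43 follow without a gap. The third run was set apart because its column names carry no line code or replicate number, unlike the others. What a run stands for is not given in the sources used here. The TIR1 treatment effect and the comparisons of untreated WAPL and combined lines with untreated TIR1 each cross runs, and run and group cannot be told apart in them. The 8 embryonic stem cell markers (among them Pou5f1, Sox2 and Nanog) were all above 1 CPM in every group, with a summed level of 3887 to 7105 CPM (counts scaled to library size with TMM factors). Their sum was lower after treatment without overlap in all 5 lines: 5168 to 5558 against 5825 to 6139 CPM in TIR1, 3887 to 4517 against 6097 to 7105 CPM in PDS5AB, 4144 to 4638 against 5591 to 6102 CPM in WAPL, 4723 to 4871 against 6069 to 6562 CPM in PDS5AB-NIPBL and 4593 to 4856 against 5731 to 5954 CPM in WAPL-NIPBL. The summed level of 6 primitive streak and mesoderm markers was 9.25 to 32.9 CPM, with treated above untreated libraries and no overlap in WAPL (15.4 to 18.6 against 9.77 to 13.03 CPM) and WAPL-NIPBL (18.8 to 23.7 against 14.7 to 17.3 CPM) and treated below untreated in PDS5AB (18.03 to 19.84 against 19.90 to 31.66 CPM), and that of 5 endoderm markers 1.45 to 16.8 CPM. The endoderm sum was higher in treated than in untreated libraries of all 4 degron lines, with no overlap: 12.9 to 16.8 against 6.15 to 8.84 CPM in PDS5AB, 4.81 to 6.02 against 2.66 to 3.27 CPM in WAPL, 4.55 to 5.78 against 2.83 to 3.51 CPM in PDS5AB-NIPBL and 3.76 to 4.59 against 2.27 to 2.54 CPM in WAPL-NIPBL. The sum of 5 neural markers was also higher without overlap in PDS5AB (85.4 to 105 against 59.3 to 77.1 CPM), PDS5AB-NIPBL (107 to 128 against 63.1 to 88.2 CPM) and WAPL-NIPBL (98.1 to 109 against 83.7 to 93.4 CPM). The sum of 5 fibroblast markers was higher without overlap in treated PDS5AB (32.6 to 33.02 against 24.2 to 25.4 CPM) and PDS5AB-NIPBL (26.1 to 28.5 against 12.5 to 16.1 CPM) and lower in treated WAPL (8.30 to 9.01 against 15.2 to 15.8 CPM). All 8 stem cell markers fell in treated PDS5AB cells, 6 of 8 in treated WAPL cells, 7 of 8 in treated PDS5AB-NIPBL cells and 6 of 8 in treated WAPL-NIPBL cells, while in TIR1 1 rose and 3 fell. By group, 3 to 4 of the 6 streak and mesoderm markers and 2 to 5 of the 5 endoderm markers averaged under 1 CPM. So did 2 to 3 of the 5 neural and 1 to 2 of the 5 fibroblast markers. These sums therefore rest on few genes, and single markers can move against them. In PDS5AB, Mixl1 went from under to above 1 CPM while the streak and mesoderm sum fell. The part of these marker shifts in the results below was not tested. In bulk libraries, fewer cells of a type and less RNA per cell cannot be told apart.

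Sp5 and Dkk1, the members that rose after treatment in all 5 lines, are shown first with the 250 bases upstream of their annotated start, beside Axin2, the most general feedback target of the pathway. TCF/LEF factors bind a core that was searched for on both strands as CTTTG followed by AA, AT, TA or TT, and matches are in capitals. Sequences are from RefSeq on GRCm38.p6, printed 5′ to 3′ on the strand of the gene: Sp5 at chr2:70474673-70474922 on the plus strand, Dkk1 at chr19:30549497-30549746 on the minus strand and Axin2 at chr11:108920099-108920348 on the plus strand.
Sp5: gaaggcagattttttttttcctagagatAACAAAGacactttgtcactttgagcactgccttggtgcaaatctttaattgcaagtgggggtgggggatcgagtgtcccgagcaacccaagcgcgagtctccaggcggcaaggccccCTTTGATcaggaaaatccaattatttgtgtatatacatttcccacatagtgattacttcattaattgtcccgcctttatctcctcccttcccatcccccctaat
Dkk1: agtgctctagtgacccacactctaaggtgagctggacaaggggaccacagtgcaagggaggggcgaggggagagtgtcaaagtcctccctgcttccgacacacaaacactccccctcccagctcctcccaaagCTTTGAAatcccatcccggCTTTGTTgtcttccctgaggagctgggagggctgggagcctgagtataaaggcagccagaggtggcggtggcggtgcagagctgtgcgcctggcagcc
Axin2: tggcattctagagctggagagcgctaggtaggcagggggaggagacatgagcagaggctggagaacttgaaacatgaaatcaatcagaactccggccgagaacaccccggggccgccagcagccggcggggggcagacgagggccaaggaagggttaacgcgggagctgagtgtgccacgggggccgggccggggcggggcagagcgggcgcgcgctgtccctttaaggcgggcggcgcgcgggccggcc

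The Sp5 window held 2 matches: 1 on the opposite strand, with its first printed base 222 bases before the start, and 1 on the strand of the gene, 104 bases before it. The Dkk1 window also held 2, at 117 and 98 bases before the RefSeq start. The Dkk1 gene of the count table starts 169 bases upstream of that, so both matches lie inside the counted gene, whereas for Sp5 and Axin2 both starts are the same. No match to these 4 spellings lay in the Axin2 window. Among 32851 promoter windows of the same length, 14.8% held at least 1 match and 1.43% held more than 1. Of the 7 members with a window in the table (11 windows, since Lef1 and Tcf7 have several), Lef1 was the third with a match, in 1 of its 4 windows, which also lies inside the counted gene. In all, 3 of the 11 member windows held a match. Sp5 and Dkk1 were chosen for display by their response in these data, and a link between matches and response was not tested. A match is a run of letters, not a measured binding site, and no binding was measured in these libraries.

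Over the 5 treatment effects and 10 members, 26 of 50 tests were called by edgeR's quasi-likelihood test at an adjusted p under 0.05, 23 of them as rises and 3 as falls. In TIR1, 6 of 10 members rose and 0 fell, while 19.9% of all tested genes were called, 10.4% higher and 9.59% lower. In PDS5AB, 4 rose and 2 fell, while 46% of all genes were called, 25.8% higher and 20.2% lower. In WAPL, 5 rose and 0 fell, with 32.8% of all genes called, 17% higher and 15.8% lower. In PDS5AB-NIPBL, 5 rose and 1 fell, with 19.5% called, 11.4% higher and 8.06% lower. In WAPL-NIPBL, 3 rose and 0 fell, with 8.57% called, 5.11% higher and 3.45% lower. With the replicate number as a block, 5 members and 19.7% of all genes were called in WAPL-NIPBL. Same-numbered libraries correlated in the 4 degron lines but not in TIR1 (-0.01 to 0.06). In results that include TIR1, calls gained with the block are therefore listed below as descriptions only and add no support. With 10 members, the PDS5AB and WAPL shares are both near their backgrounds of 46% and 32.8%. Those of TIR1, PDS5AB-NIPBL and WAPL-NIPBL lay further above theirs, and no share was tested against its background. Without Lgr5, whose counts are too low for a fitted fold in 4 lines, the median log2 fold change of the 9 members was 0.98, 0.30, 0.73, 0.54 and 0.41 in TIR1, PDS5AB, WAPL, PDS5AB-NIPBL and WAPL-NIPBL, while the median over all tested genes lay between -0.01 and 0.04.

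**Figure D1:**
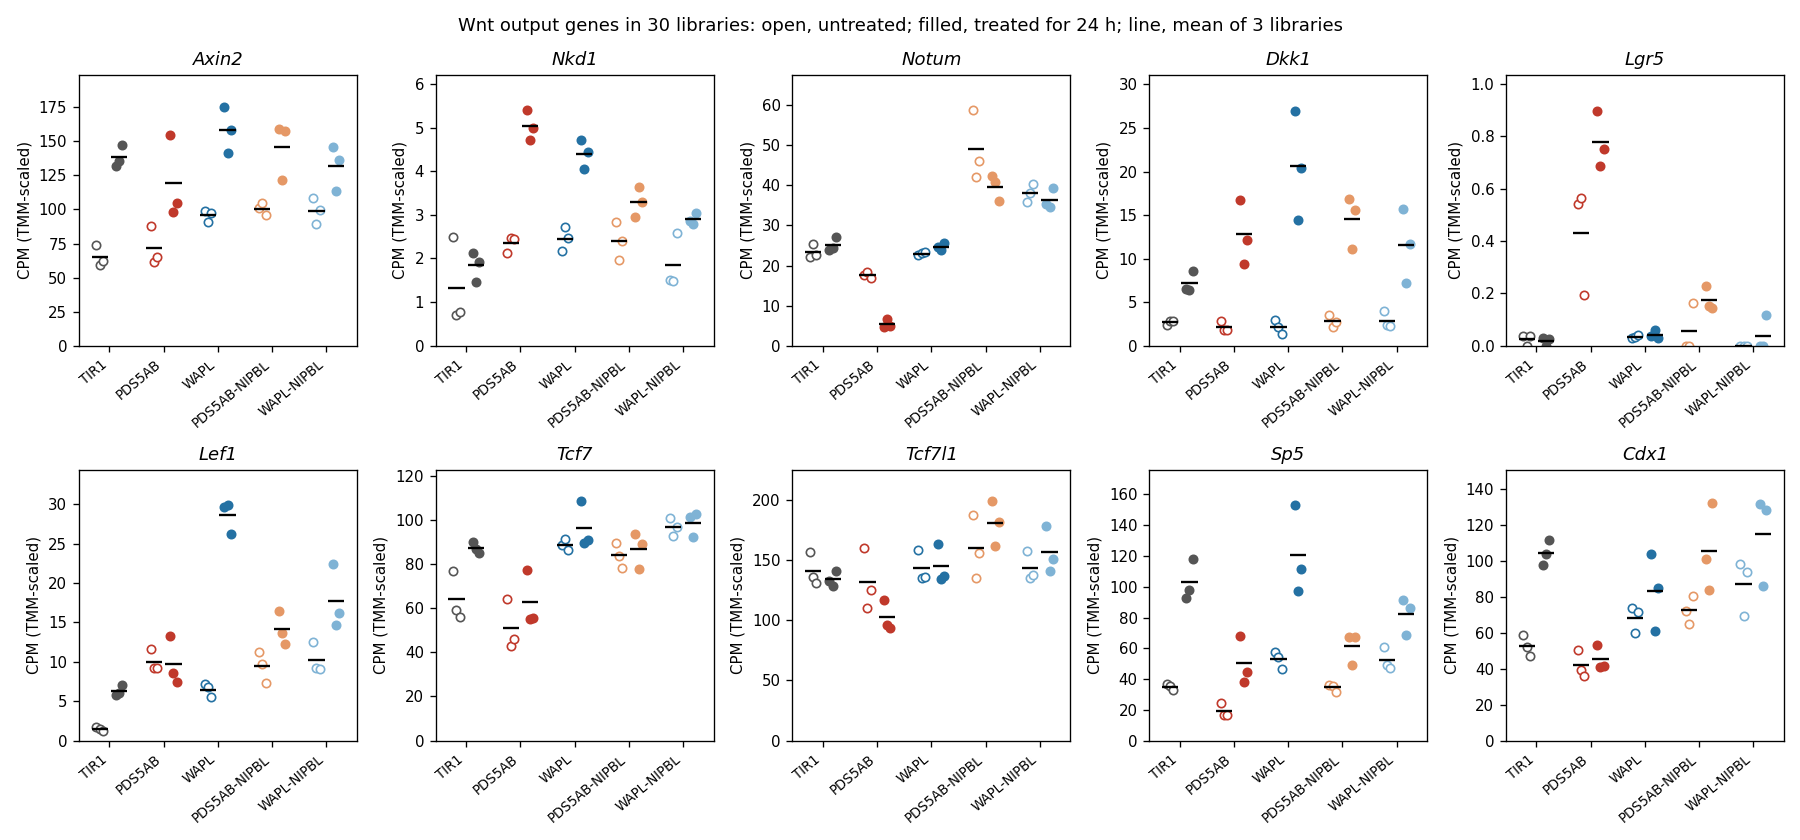
Level of each Wnt output gene in CPM (vertical axis, linear from 0, a different range in each panel) in the 30 libraries, grouped by line. Open circles are untreated and filled circles treated libraries, and black lines are means of 3. Dkk1 and Sp5 stand higher in treated than in untreated libraries of every line, and Notum is lowest in treated PDS5AB cells, at 4.77 to 6.80 CPM.

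Sp5, a direct target of beta-catenin, encodes a zinc-finger transcription factor. The gene lies at chr2:70474923-70477729 on GRCm38. It read 36.6, 35.6 and 32.6 CPM in untreated TIR1 and 93.0, 97.8 and 118 CPM after auxin. In PDS5AB it read 24.5, 16.5 and 16.8 CPM untreated and 67.8, 37.8 and 44.9 CPM treated. In WAPL it read 57.8, 54.4 and 46.8 CPM untreated and 153, 97.3 and 112 CPM treated. The treated and untreated libraries did not overlap in any of these 3 lines, and the highest levels were reached in treated WAPL and treated TIR1 cells. In PDS5AB-NIPBL the untreated libraries read 36.2, 35.7 and 31.7 CPM and the treated ones 67.5, 49.2 and 67.6 CPM. In WAPL-NIPBL they read 61.1, 49.3 and 47.5 CPM untreated and 91.1, 68.7 and 86.2 CPM treated. Both combined lines again showed no overlap, with smaller steps.

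The log2 fold change of Sp5 was 1.56 ± 0.18 (SE) in TIR1, 1.38 ± 0.18 in PDS5AB and 1.19 ± 0.17 in WAPL, against 0.83 ± 0.18 in PDS5AB-NIPBL and 0.64 ± 0.17 in WAPL-NIPBL. All 5 were called (edgeR, adjusted p from 2.954e-07 in TIR1 to 0.01712 in WAPL-NIPBL). The WAPL-NIPBL call was lost without treated library 1 or 3 or untreated library 2 or 3, where the adjusted p reached 0.09436. The rise in WAPL-NIPBL was smaller than that in TIR1 by 0.92 ± 0.25 on the log2 scale (edgeR adjusted p = 0.02103), a call that was lost in 3 of the analyses without 1 library. The differences of the PDS5AB and WAPL effects from the TIR1 effect were -0.17 ± 0.25 and -0.37 ± 0.25 and were not called (edgeR adjusted p = 0.6607 and 0.3096). The WAPL difference was called with the block, which does not pair TIR1 libraries. The difference of the PDS5AB-NIPBL effect from the TIR1 effect was -0.72 ± 0.25 and was not called either (adjusted p = 0.06192), except with the 4 groups fitted alone, without the filter on low counts or with the block. The fitted effect was smaller by 0.55 ± 0.25 in PDS5AB-NIPBL than in PDS5AB and by 0.54 ± 0.25 in WAPL-NIPBL than in WAPL. The combined lines differ from those by the NIPBL degron, RAD21-Halo, dTAG-13 and the line itself, which cannot be told apart. Neither was called (edgeR adjusted p = 0.1834 and 0.2399), while both were with the replicate block (0.01672 and 0.01619) and without the filter on low counts.

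Dkk1 encodes a secreted inhibitor that binds the LRP co-receptors and is itself a Wnt target. The gene lies at chr19:30545863-30549665. Untreated levels were low and alike, between 1.299 and 3.98 CPM over the 15 untreated libraries of the 5 lines. After treatment Dkk1 read 6.57, 6.36 and 8.54 CPM in TIR1 and 16.8, 9.44 and 12.1 CPM in PDS5AB. The treated WAPL libraries read 26.99, 14.5 and 20.4 CPM. Every treated library of these lines lay above every untreated one, and treated WAPL cells had the highest mean. In the combined lines the treated libraries read 16.9, 11.2 and 15.6 CPM (PDS5AB-NIPBL) and 15.8, 7.23 and 11.7 CPM (WAPL-NIPBL). By mean, treated WAPL cells were followed by treated PDS5AB-NIPBL, PDS5AB, WAPL-NIPBL and TIR1 cells, and each of these overlapped with its neighbour in this order.

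Dkk1 had the largest rise among the members in PDS5AB, WAPL and both combined lines, while in TIR1 the rises of Lef1 and Sp5 were larger. Its log2 fold change was 1.42 ± 0.30 in TIR1, 2.59 ± 0.29 in PDS5AB and 3.24 ± 0.29 in WAPL, and it was 2.37 ± 0.29 in PDS5AB-NIPBL and 2.03 ± 0.29 in WAPL-NIPBL (edgeR, adjusted p at most 0.0009801). The WAPL effect exceeded the TIR1 effect by 1.83 ± 0.42 (edgeR adjusted p = 0.002033), and this call held in every alternative run. The PDS5AB effect exceeded it by 1.18 ± 0.42 (adjusted p = 0.03834), a call lost in 9 of the 12 analyses without 1 library, with an adjusted p of up to 0.1239. For the combined lines the excess over TIR1 was 0.96 ± 0.42 and 0.61 ± 0.42 (PDS5AB-NIPBL and WAPL-NIPBL) and was not called (adjusted p = 0.1521 and 0.4242). The PDS5AB-NIPBL excess was called with the 4 groups fitted alone, with the block and without the filter on low counts. The WAPL-NIPBL effect was lower than the WAPL effect by 1.21 ± 0.42, which was not called (adjusted p = 0.09453). It was called with the block (0.0007915), without the filter on low counts, without treated WAPL library 2 and without treated WAPL-NIPBL library 1. Sp5 and Dkk1 are 2 of the 232 genes (1.17% of all tested) that were called higher in all 5 treatment effects.

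Axin2 encodes a scaffold of the destruction complex and is a feedback inhibitor. The gene lies at chr11:108920349-108950783 and shares exonic sequence with Gm11670, which stayed at or below 0.425 CPM. In untreated TIR1 cells Axin2 read 73.7, 59.4 and 62.2 CPM, and after auxin 132, 135 and 147 CPM. In PDS5AB it read 87.8, 61.7 and 65.3 CPM untreated and 155, 98.3 and 104 CPM treated. In WAPL it read 98.9, 90.6 and 97.3 CPM untreated and 175, 142 and 158 CPM treated. No treated library overlapped with the untreated ones of its line. The untreated PDS5AB-NIPBL libraries read 101, 105 and 95.5 CPM against 159, 122 and 157 CPM treated. The untreated WAPL-NIPBL libraries read 108, 89.1 and 99.5 CPM against 146, 114 and 137 CPM treated. Treated and untreated libraries were apart in both, and all 5 treated groups ranked above all 5 untreated groups by mean.

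Axin2 rose by a log2 fold change of 1.09 ± 0.14 in TIR1, 0.73 ± 0.14 in PDS5AB, 0.73 ± 0.14 in WAPL and 0.54 ± 0.14 in PDS5AB-NIPBL (edgeR adjusted p = 1.72e-06, 6.201e-05, 0.0001086 and 0.004895). Without treated library 1 the PDS5AB value was 0.49 and still called. In WAPL-NIPBL it was 0.41 ± 0.14 and missed the threshold (adjusted p = 0.05605), but was called with the replicate block (1.758e-05), by DESeq2, with the 2 groups fitted alone, without the filter on low counts and without treated library 2. The fitted effect in each degron line was smaller than in TIR1, with differences of -0.35 ± 0.19 in PDS5AB, -0.36 ± 0.19 in WAPL, and -0.55 ± 0.19 and -0.67 ± 0.19 in PDS5AB-NIPBL and WAPL-NIPBL. Of these, the WAPL-NIPBL difference was called (adjusted p = 0.03098), a call lost in 7 of the 12 analyses without 1 library. The PDS5AB difference was -0.62 and called without treated PDS5AB library 1, and the PDS5AB-NIPBL difference was called without untreated TIR1 library 1. All 3 remaining differences were called without the filter on low counts. They were also called with the block, but replicate numbers did not pair in TIR1, so the block adds no support. The TIR1 term in all of these crosses runs.

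**Figure D2:**
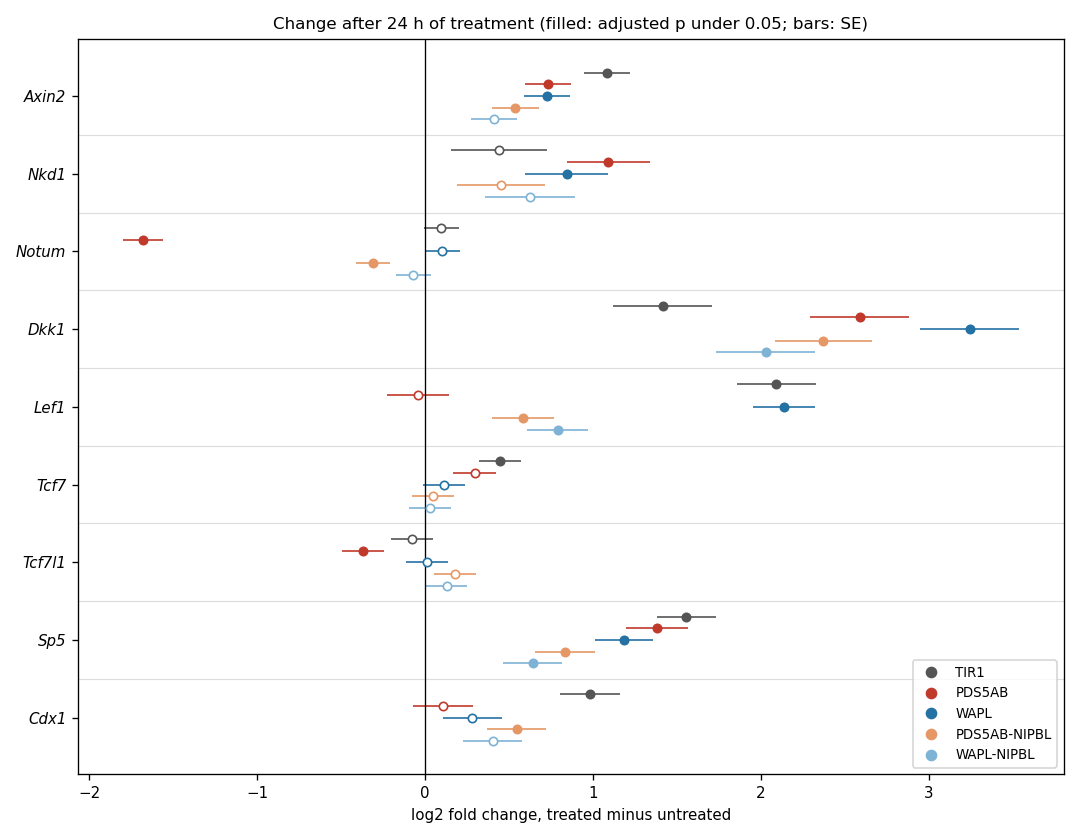
Log2 fold change (treated minus untreated, horizontal axis) of 9 members in the 5 lines, with SE from edgeR. Filled points were called at an adjusted p under 0.05. Lgr5 is left out because its counts are too low for a fitted fold in 4 lines. Dkk1 and Sp5 are filled and above 0 in all 5 lines, whereas Notum in PDS5AB lies at -1.68.

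Nkd1, the gene of a Dishevelled-binding feedback inhibitor at chr8:88521354-88594884, was weakly expressed. It read 2.12, 2.48 and 2.46 CPM in untreated PDS5AB and 5.41, 4.70 and 5.00 CPM after auxin. In WAPL it read 2.16, 2.72 and 2.48 CPM untreated and 4.72, 4.05 and 4.44 CPM treated. Both lines showed no overlap, and these treated groups held the highest Nkd1 levels of the series. The log2 fold changes were 1.09 ± 0.25 and 0.84 ± 0.25 (edgeR adjusted p = 0.000531 and 0.009176). In PDS5AB-NIPBL and WAPL-NIPBL the treated libraries also lay above the untreated ones, with log2 fold changes of 0.45 ± 0.26 and 0.63 ± 0.27 that were not called (adjusted p = 0.2574 and 0.1615). In TIR1 the untreated libraries read 2.50, 0.705 and 0.780 CPM and the treated ones 2.13, 1.47 and 1.93 CPM. Untreated TIR1 library 1 stood above all treated TIR1 libraries, and the value of 0.44 ± 0.29 was not called (adjusted p = 0.2932). Without that library it was 1.32 and called. The 7 differences between Nkd1 effects ran from -0.64 to 0.65, with SE of 0.35 to 0.41 (smallest edgeR adjusted p = 0.2163), and 0 were called, with 0 at an unadjusted p under 0.05 and 0 by DESeq2.

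Notum encodes a secreted carboxylesterase that inactivates Wnt proteins by removing their palmitoleate. The gene lies at chr11:120653788-120661175, and its exons overlap Notumos and Myadml2os on the opposite strand, which reached 8.75 CPM. Fragments were counted without regard to strand and those shared by several genes were dropped, so the Notum values are uncertain. In PDS5AB cells Notum read 17.6, 18.3 and 16.9 CPM untreated and 4.77, 6.80 and 4.87 CPM after auxin. The groups were far apart, and the fall of 1.68 ± 0.12 on the log2 scale (edgeR adjusted p = 3.439e-12) was the largest of the 3 called falls of members. In TIR1 the libraries read 22.2, 25.4 and 22.7 CPM untreated and 23.8, 24.3 and 27.04 CPM treated. In WAPL they read 22.6, 23.1 and 23.3 CPM untreated and 24.6, 24.0 and 25.6 CPM treated. Both lines had a fitted log2 change of 0.10 ± 0.10 that missed the threshold (edgeR adjusted p = 0.5534 and 0.4912). This effect differed from that in TIR1 by -1.78 ± 0.16 (adjusted p = 2.52e-09) and from that in WAPL by -1.78 ± 0.16 (7.439e-09).

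In the combined line with the PDS5A and PDS5B degrons the fall of Notum was smaller. PDS5AB-NIPBL cells read 58.8, 42.2 and 46.1 CPM untreated and 42.4, 40.8 and 35.99 CPM treated. These groups overlapped through the highest treated library. The log2 change was -0.31 ± 0.10 (edgeR adjusted p = 0.03178), which dropped to -0.16 and was not called without untreated library 1, was not called when the 2 groups were fitted alone, and was not called without treated library 2 or 3. The effect differed from that in PDS5AB by 1.37 ± 0.16 (adjusted p = 1.268e-06), a call held in every alternative run. Against TIR1 the difference was -0.41 ± 0.15 and was not called (adjusted p = 0.07482), but was by DESeq2, without the filter on low counts, without untreated PDS5AB-NIPBL library 2 and with the block. WAPL-NIPBL cells read 35.96, 37.99 and 40.4 CPM untreated and 35.3, 34.6 and 39.3 CPM treated, overlapping values with a log2 change of -0.07 ± 0.10 (adjusted p = 0.7803).

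Lef1 encodes a TCF/LEF factor that acts mostly as an activator with beta-catenin and is a target gene itself. It lies at chr3:131110471-131224356, and Gm43352, which shares exonic sequence, stayed at or below 0.939 CPM. Untreated TIR1 cells had the lowest level of all groups, at 1.69, 1.45 and 1.28 CPM, and auxin-treated TIR1 cells read 5.78, 6.08 and 7.03 CPM. WAPL cells read 7.14, 6.77 and 5.47 CPM untreated and 29.7, 29.8 and 26.3 CPM treated. Untreated WAPL and treated TIR1 overlapped, while treated WAPL lay above all other groups of the series. PDS5AB cells read 11.6, 9.26 and 9.22 CPM untreated and 13.3, 8.53 and 7.48 CPM treated. Here the untreated range lay inside the treated one.

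The log2 fold change of Lef1 was 2.09 ± 0.24 in TIR1 and 2.14 ± 0.19 in WAPL (edgeR adjusted p = 2.466e-07 and 2.602e-10), against -0.04 ± 0.18 in PDS5AB (adjusted p = 0.8753). The PDS5AB effect was lower than the TIR1 effect by 2.13 ± 0.30 (adjusted p = 5.033e-06) and lower than the WAPL effect by 2.18 ± 0.26 (1.051e-06). The WAPL and TIR1 effects differed by 0.05 ± 0.33, which was not called (adjusted p = 0.9471). In PDS5AB-NIPBL Lef1 read 11.2, 9.75 and 7.31 CPM untreated and 16.4, 13.7 and 12.3 CPM treated. In WAPL-NIPBL it read 12.5, 9.27 and 9.04 CPM untreated and 22.5, 14.6 and 16.1 CPM treated. Neither combined line showed overlap, and the log2 fold changes were 0.59 ± 0.18 and 0.79 ± 0.18 (adjusted p = 0.02311 and 0.00412). The first was not called without treated library 1 or untreated library 3, and the second not without treated library 1 (adjusted p = 0.05013). The WAPL-NIPBL effect was lower than the WAPL effect by 1.35 ± 0.26 (adjusted p = 0.001239), a call held in every alternative run. The PDS5AB-NIPBL effect lay 0.63 ± 0.26 above the PDS5AB effect, which was not called (adjusted p = 0.1313). It was called with the replicate block (0.00167), without the filter on low counts and, at 0.93, without treated PDS5AB library 1.

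Tcf7, which encodes TCF1, lies at chr11:52252371-52283331 and rose in TIR1 from 76.9, 59.4 and 55.8 CPM to 90.1, 87.0 and 85.2 CPM. These groups did not overlap, and the log2 fold change was 0.45 ± 0.13 (edgeR adjusted p = 0.01094). The call was lost without untreated library 2 or 3. In PDS5AB the levels of 64.3, 42.7 and 45.9 CPM untreated and 77.1, 55.1 and 55.7 CPM treated overlapped. Replicate 1 was highest in both groups there, and the log2 change of 0.30 ± 0.13 was not called (adjusted p = 0.05552), but was with the replicate block (3.141e-05), without the filter on low counts, and without treated library 2 or 3 or untreated library 1, where it was 0.50. In WAPL, PDS5AB-NIPBL and WAPL-NIPBL the values were 0.12, 0.05 and 0.03, with SE of 0.12 to 0.13, and were not called. The 7 differences between Tcf7 effects ran from -0.42 to 0.18, with an SE of 0.18 (smallest edgeR adjusted p = 0.1568), and 0 were called, with 2 at an unadjusted p under 0.05 and 0 by DESeq2. Without untreated TIR1 library 1 the differences of the WAPL, PDS5AB-NIPBL and WAPL-NIPBL effects from TIR1 were called, at -0.49, -0.57 and -0.59, as they were without the filter on low counts or with the block. The block also called the difference between the PDS5AB-NIPBL and PDS5AB effects on Tcf7 (-0.25, adjusted p = 0.01969, against 0.428 without it).

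Tcf7l1, at chr6:72626378-72789254, encodes TCF7L1, also called TCF3, mainly a repressor of naive pluripotency genes, and Gm15401 in its exons stayed at or below 0.454 CPM. It had the narrowest spread among the members, from 102 ± 13 CPM (SD, n = 3) in treated PDS5AB to 181 ± 19 CPM in treated PDS5AB-NIPBL. In PDS5AB it read 160, 110 and 125 CPM untreated and 117, 96.3 and 93.4 CPM treated. The groups overlapped through treated library 1 and untreated library 2. The fall of 0.37 ± 0.12 on the log2 scale was called (edgeR adjusted p = 0.01608) but dropped to -0.20 without untreated library 1 and was also not called without treated library 2 or 3. The effect in PDS5AB-NIPBL, 0.18 ± 0.12, was called only with the replicate block (adjusted p = 0.004843, against 0.3578 without it). It lay 0.55 ± 0.18 above that in PDS5AB (adjusted p = 0.04516), a call lost in 8 of the 12 analyses without 1 library and when the 4 groups were fitted alone. The PDS5AB effect stood -0.38 ± 0.18 from the WAPL effect and was not called (adjusted p = 0.1647), but was with the block (0.0001825) and without the filter on low counts. In TIR1, WAPL and WAPL-NIPBL the log2 changes were -0.08, 0.01 and 0.13, each with an SE of 0.12, and were not called.

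On the TPM scale, which accounts for gene length, Tcf7l1 made up 49.5% to 63.4% of the summed transcripts of the 4 TCF/LEF factors by group mean and Tcf7 31.7% to 44.8%. Lef1 made up 0.285% ± 0.012 (SD, n = 3) in untreated TIR1 cells and 4.40% ± 0.43 in treated WAPL cells, the ends of its range. Tcf7l2, the fourth factor, stayed between 2.37% and 3.21%. In treated PDS5AB cells the share of Tcf7 was 42.02% ± 1.65 against 31.7% ± 1.0 untreated, and that of Tcf7l1 53.2% ± 1.8 against 63.4% ± 0.9. A shift of like size was seen in TIR1, where Tcf7 went from 35.98% ± 1.83 to 44.0% ± 1.7. These shares are descriptions of level and were not tested.

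**Figure D3:**
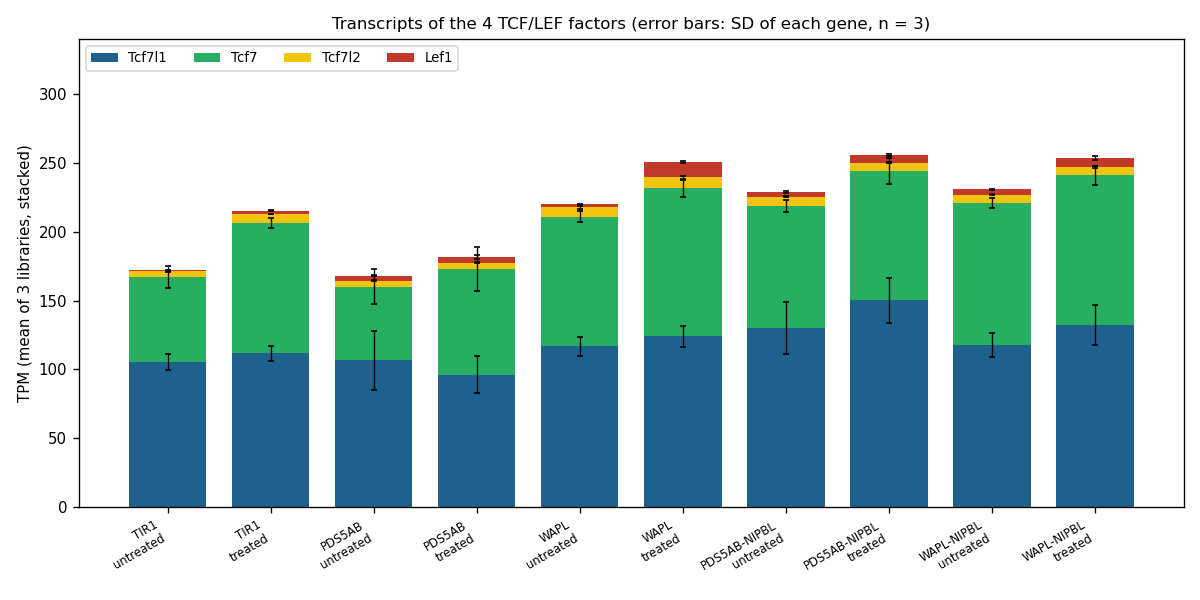
Stacked mean level in TPM (vertical axis from 0, n = 3 libraries) of Tcf7l1, Tcf7, Tcf7l2 and Lef1 in the 10 groups, with SD bars for each gene at the top of its segment. Lef1 is a thin segment in all groups and is largest in treated WAPL cells, at 10.99 TPM.

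Cdx1 encodes a caudal-type homeobox factor of posterior patterning and is a direct target of Wnt in the embryo. It lies at chr18:61018862-61036199. It read 59.0, 52.0 and 47.2 CPM in untreated TIR1 and 97.8, 104 and 112 CPM after auxin, with no overlap and a log2 fold change of 0.98 ± 0.18 (edgeR adjusted p = 0.0001788). In PDS5AB it read 50.5, 39.1 and 36.2 CPM untreated and 53.1, 41.1 and 41.3 CPM treated, and in WAPL 73.8, 59.6 and 71.8 CPM untreated and 104, 61.2 and 84.8 CPM treated. Both pairs overlapped. The log2 changes were 0.11 ± 0.18 and 0.28 ± 0.18 and were not called (adjusted p = 0.6565 and 0.2336), although the WAPL value was with the replicate block (0.008421), without the filter on low counts and, at 0.48, without treated library 2. The PDS5AB effect was lower than that in TIR1 by 0.88 ± 0.25 (adjusted p = 0.009648), a call held in every alternative run. The WAPL effect was lower by 0.70 ± 0.25 (adjusted p = 0.04222), which DESeq2 and 9 of the 12 analyses without 1 library did not call.

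In PDS5AB-NIPBL Cdx1 read 72.2, 64.6 and 80.4 CPM untreated and 101, 83.7 and 132 CPM treated. The groups did not overlap, and the log2 fold change was 0.55 ± 0.18 (edgeR adjusted p = 0.0261), which dropped to 0.36 and was not called without treated library 3, and was not called without untreated library 1 or 2. In WAPL-NIPBL it read 98.4, 69.2 and 93.7 CPM untreated and 132, 85.8 and 128 CPM treated. These overlapped, with a log2 change of 0.40 ± 0.17 that was not called (adjusted p = 0.1661), but was with the replicate block (0.0004172), without the filter on low counts and without treated library 2.

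Lgr5 encodes a receptor for R-spondins and marks stem cells of the intestinal crypt. It lies at chr10:115450311-115587780 and was close to the limit of detection outside the PDS5AB line. It had 0 or 1 count per library in both TIR1 groups and 0 in all 3 untreated WAPL-NIPBL libraries. In PDS5AB it read 0.540, 0.562 and 0.193 CPM untreated and 0.895, 0.686 and 0.751 CPM treated, from 7 to 17 and 21 to 24 counts per library. The treated libraries lay above the untreated ones, with a log2 change of 0.86 ± 0.47 that missed the threshold (edgeR adjusted p = 0.1385). In PDS5AB-NIPBL it had 0 to 5 counts untreated and 3 to 5 treated, in WAPL 1 to 2 counts over both groups and in treated WAPL-NIPBL 0 to 4. No fold is given for these lines, because no library of theirs held more than 5 counts.

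The members differed in level between the lines before any treatment. Against untreated TIR1, 23 of 40 tests over 4 lines were called, 20 higher and 3 lower. In untreated PDS5AB 3 members were higher, 1 of them Lgr5, which was tested only because treated PDS5AB cells passed the filter, and 3 lower, while 32% of all tested genes were called, 15.5% higher and 16.5% lower. In untreated WAPL 5 were higher and 0 lower, with 14% called, 6.62% higher and 7.39% lower. In untreated PDS5AB-NIPBL 6 were higher and 0 lower, with 34.3% called, 16.5% higher and 17.8% lower. In untreated WAPL-NIPBL 6 were higher and 0 lower, with 28% called, 13.4% higher and 14.6% lower. Only the PDS5AB comparison lies within a single run of library numbers.

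Lef1 was higher than in untreated TIR1 in all 4 degron lines, by a log2 difference of 2.76 ± 0.23 in PDS5AB, 2.14 ± 0.24 in WAPL, and 2.67 ± 0.24 and 2.79 ± 0.23 in PDS5AB-NIPBL and WAPL-NIPBL (edgeR adjusted p at most 2.064e-07). None of the 12 untreated degron libraries, at 5.47 to 12.5 CPM, overlapped with untreated TIR1. Axin2 was higher in WAPL, PDS5AB-NIPBL and WAPL-NIPBL, by 0.55 to 0.63 with an SE of 0.14 (adjusted p at most 0.007036), and stood at 0.14 ± 0.14 in PDS5AB (adjusted p = 0.5003). Sp5 was lower in PDS5AB, with a log2 difference of -0.86 ± 0.19 (adjusted p = 0.0004689), with 3 libraries of 16.5 to 24.5 CPM below the lowest TIR1 value of 32.6 CPM. It was higher in WAPL and WAPL-NIPBL, by 0.60 ± 0.18 and 0.59 ± 0.18 (adjusted p = 0.02201 and 0.014), calls lost in 4 and 2 of the 6 analyses without 1 library, and stood at -0.02 ± 0.18 in PDS5AB-NIPBL (adjusted p = 0.9558).

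Notum was higher in both lines with NIPBL-FKBP and RAD21-Halo, by a log2 difference of 1.07 ± 0.10 in PDS5AB-NIPBL and 0.70 ± 0.10 in WAPL-NIPBL (edgeR adjusted p = 2.74e-09 and 6.901e-06). In PDS5AB it was lower, at -0.41 ± 0.11 (adjusted p = 0.003245), and in WAPL it stood at -0.02 ± 0.11 (0.9112). Tcf7 was higher in WAPL by 0.47 ± 0.13, and by 0.39 ± 0.13 and 0.60 ± 0.13 in PDS5AB-NIPBL and WAPL-NIPBL (adjusted p = 0.01129, 0.0167 and 0.0006547), and stood at -0.33 ± 0.13 in PDS5AB, also called (0.04549). The calls in WAPL, PDS5AB-NIPBL and PDS5AB were lost in 2, 3 and 3 of the 6 analyses without 1 library, and the PDS5AB value was -0.18 without untreated TIR1 library 1. That call was also lost with RLE size factors and with the 2 groups fitted alone. Cdx1 was higher in PDS5AB-NIPBL and WAPL-NIPBL by 0.46 ± 0.18 and 0.72 ± 0.18 (adjusted p = 0.04493 and 0.002711); DESeq2 did not call the first, and 4 of its 6 analyses without 1 library did not. In PDS5AB and WAPL it stood at -0.33 and 0.38 and was not called (adjusted p = 0.1664 and 0.1649), though the WAPL value was called with the 2 groups fitted alone and both were without the filter on low counts. Both were also called with the block, which does not pair TIR1 libraries.

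Nkd1 was called higher in PDS5AB, WAPL and PDS5AB-NIPBL, by 0.81 ± 0.28, 0.86 ± 0.28 and 0.84 ± 0.29 (edgeR adjusted p = 0.02761, 0.03965 and 0.02333), and stood at 0.48 ± 0.30 in WAPL-NIPBL (0.2374), or at 1.35 and called without untreated TIR1 library 1. These values turn on untreated TIR1 library 1, at 2.50 CPM against 0.705 and 0.780 CPM in the other two: without it the 3 differences were 1.65, 1.73 and 1.69, and without library 3 they were 0.52, 0.57 and 0.55 and not called. Fitting the 2 groups alone also ended all 3 calls. The Lgr5 level of PDS5AB was at least 3.71-fold higher than that of untreated TIR1, computed against 3 counts per library there, and is a description only, since the filter kept the gene for this line. Dkk1 was called in none of the 4 lines by edgeR, DESeq2 or any other alternative run, with log2 differences of -0.34 to 0.07 and SE of 0.33 to 0.34 (smallest unadjusted p = 0.3168). Tcf7l1 was not called by edgeR without a block, at -0.10 to 0.18 with an SE of 0.12, and with the block it was called in PDS5AB-NIPBL.

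**Figure D4:**
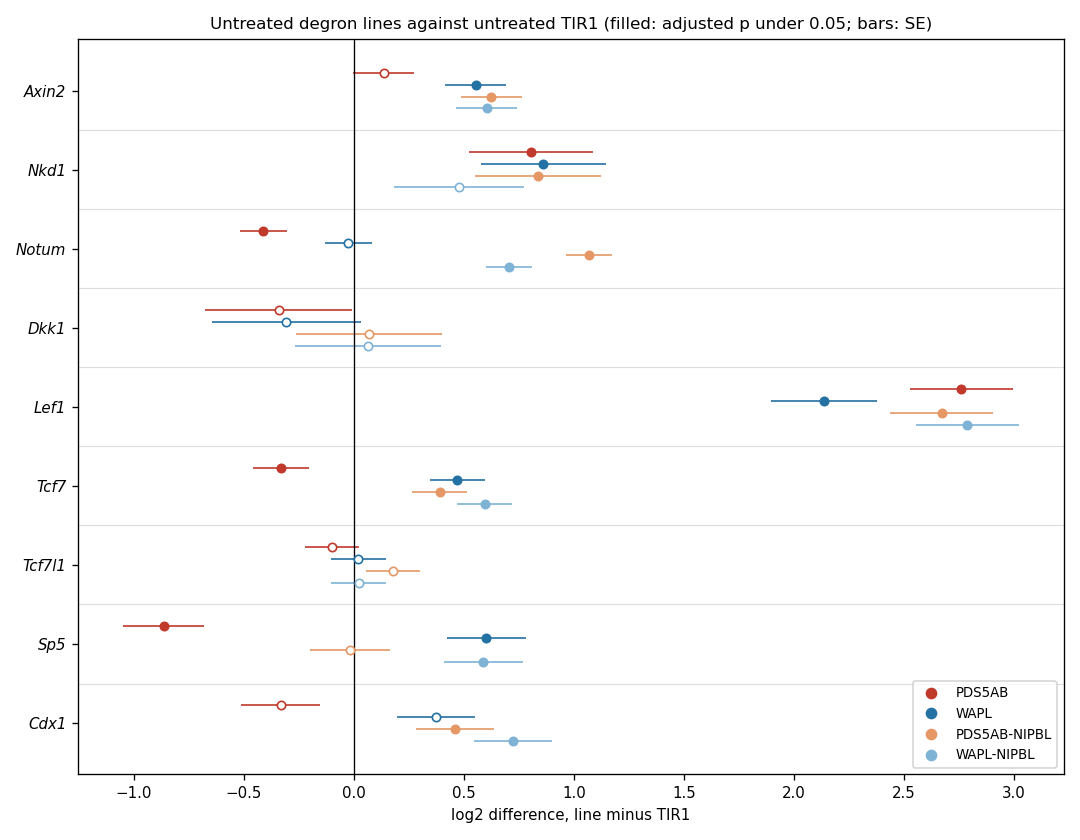
Log2 difference of 9 members between each untreated degron line and untreated TIR1 (horizontal axis, line minus TIR1) with SE from edgeR. Filled points were called at an adjusted p under 0.05. Lef1 lies above 2 in all 4 lines, Sp5 lies on both sides of 0 by line, and Dkk1 has open points only.

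Compared across lines, 15 of 70 differences between treatment effects were called, 4 of them positive and 11 negative. Relative to the TIR1 effect, 4 members responded differently in PDS5AB (26.3% of all tested genes did), 2 in WAPL (20.7%), and 1 and 3 in PDS5AB-NIPBL and WAPL-NIPBL (10.1% and 7.04%). These 4 comparisons share the TIR1 libraries. The PDS5AB-NIPBL and PDS5AB effects differed in 2 members (9.46%), the WAPL-NIPBL and WAPL effects in 1 (5.19%) and the PDS5AB and WAPL effects in 2 (12.5%). Adding the block gave 6, 4 and 3 members in these last 3, while the share of all genes also went up, to 23%, 13.9% and 25.6%. Among the members, Lef1 and Notum separated the PDS5AB response from the WAPL response, whereas for Axin2 the difference between them was 0.01 ± 0.19 and for Sp5 0.20 ± 0.25 (edgeR adjusted p = 0.9878 and 0.683). For Dkk1 it was -0.65 ± 0.42 (adjusted p = 0.3523).

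Per length, the untreated members spanned a wide range. The median of the 5 untreated group means was 125 TPM for Cdx1, 117 for Tcf7l1, 89.0 for Tcf7, 55.7 for Axin2, 52.6 for Sp5 and 30.7 for Notum. Lef1, Dkk1 and Nkd1 were far lower, at 3.43, 3.26 and 1.64 TPM, and Lgr5 was at 0.0110 TPM. Correlations of log2 CPM were taken over all 30 libraries, which differ in line, treatment and run. Among the members, Axin2 was most like Sp5 (Pearson's r = 0.86) and Tcf7 most like Cdx1 (0.85). Dkk1 was most like Axin2 (0.83) and Tcf7l1 most like Notum (0.75). Among the 12940 tested genes averaging 50 counts or more per library, the 3 most like Axin2 were Frmd4b (0.92), S1pr1 (0.91) and Tex2 (0.91), and the 3 most like Sp5 were Fam53b (0.95), Sept8 (0.93) and Smox (0.93). These correlations are descriptions over libraries of 10 groups.

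Other genes of the pathway were followed in 8 lists with 102 genes, of which 96 were tested. In TIR1 29 of the 96 were called (18 higher, 11 lower, against 19.9% of all genes), in PDS5AB 59 (40 and 19, against 46%), in WAPL 46 (28 and 18, against 32.8%), in PDS5AB-NIPBL 32 (17 and 15, against 19.5%) and in WAPL-NIPBL 20 (13 and 7, against 8.57%). With the replicate block the WAPL-NIPBL count was 38, against 19.7% of all genes. The median log2 fold change of the 96 genes lay between 0.03 and 0.23, below that of the 9 members without Lgr5 in each line. The genes named from these lists have the largest called rise or fall among those averaging at least 50 counts per library, and genes with fewer counts could have larger fitted changes.

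Of 19 tested genes for Wnt ligands and their secretion, 3 rose and 1 fell in TIR1, 13 rose and 1 fell in PDS5AB, and 8 rose and 2 fell in WAPL. In PDS5AB-NIPBL 5 rose and 1 fell, and in WAPL-NIPBL 5 rose and 0 fell. Wnt3, the ligand that starts primitive streak formation in the embryo, had the largest such rise in every line. It went from 0.304 ± 0.151 to 0.855 ± 0.299 CPM (SD, n = 3) in TIR1 and from 1.29 ± 0.34 to 8.66 ± 0.74 CPM in PDS5AB. Its log2 fold change was 1.49 ± 0.39 in TIR1, 2.75 ± 0.26 in PDS5AB, 2.72 ± 0.31 in WAPL, and 2.61 ± 0.34 and 2.36 ± 0.36 in the combined lines with PDS5AB and WAPL (edgeR adjusted p at most 0.007335). Porcn, the acyltransferase that lipidates Wnts, fell in PDS5AB and PDS5AB-NIPBL by 0.53 and 0.78 on the log2 scale.

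Of 15 receptor genes, 2 rose and 3 fell in TIR1, 8 rose and 1 fell in PDS5AB, 7 rose and 1 fell in WAPL, 3 rose and 3 fell in PDS5AB-NIPBL, and 3 rose and 1 fell in WAPL-NIPBL. Fzd5 had the largest such fall in PDS5AB (from 194 to 88.4 CPM, log2 fold change -1.13 ± 0.07), in WAPL (-0.50 ± 0.07) and in WAPL-NIPBL (-0.36 ± 0.07), and also fell in PDS5AB-NIPBL (-0.48 ± 0.07). Fzd10 had the largest such rise in TIR1 (0.65 ± 0.10) and WAPL (0.96 ± 0.10), and Fzd8 in PDS5AB-NIPBL (1.12 ± 0.13) and WAPL-NIPBL (0.77 ± 0.12). Fzd10 rose in all 5 lines and Fzd8 in the 4 degron lines. Of 8 genes of the R-spondin branch, 1 rose and 1 fell in TIR1 and in WAPL, 4 rose and 0 fell in PDS5AB, and 2 rose and 1 fell in PDS5AB-NIPBL. Rnf43, the ubiquitin ligase that removes Frizzled receptors, rose in TIR1, PDS5AB and PDS5AB-NIPBL by log2 fold changes of 1.62 ± 0.27, 1.63 ± 0.24 and 0.88 ± 0.27. Lgr6, a relative of Lgr5, rose in PDS5AB, WAPL and PDS5AB-NIPBL by 1.34 ± 0.18, 1.35 ± 0.25 and 1.07 ± 0.22. In WAPL-NIPBL edgeR called 0 of the 8, with 3 at an unadjusted p under 0.05, while DESeq2 called 1 and the replicate block gave 2.

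Of 15 genes of the destruction complex and beta-catenin, 5 rose and 1 fell in TIR1, 3 rose and 3 fell in PDS5AB, 1 rose and 2 fell in WAPL, 0 rose and 1 fell in PDS5AB-NIPBL, and edgeR called 0 in WAPL-NIPBL, with 0 at an unadjusted p under 0.05, 0 by DESeq2 and 2 with the replicate block. Changes were small: Gsk3b, the kinase that CHIR-99021 inhibits along with its paralogue, rose by 0.53 ± 0.08 in TIR1 and 0.32 ± 0.08 in PDS5AB, and Gsk3a fell by 0.26 in both WAPL and PDS5AB-NIPBL. Of 12 nuclear cofactors, 2 to 6 were called in the first 4 lines and 1 in WAPL-NIPBL. Tle4, a Groucho-type corepressor, fell in PDS5AB, WAPL, PDS5AB-NIPBL and WAPL-NIPBL by 0.46, 0.52, 0.58 and 0.48 on the log2 scale, each with an SE of 0.08. Tcf7l2 had the largest such rise in TIR1, at 0.57 ± 0.10.

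Of 10 tested genes of other secreted antagonists, 2 rose and 6 fell in WAPL, 3 rose and 3 fell in PDS5AB, 1 rose and 2 fell in TIR1, 0 rose and 2 fell in PDS5AB-NIPBL, and 1 rose and 2 fell in WAPL-NIPBL. Sfrp4, a secreted Frizzled-related protein, had the largest such fall within WAPL, at a log2 fold change of -2.61 ± 0.33 (4.53 to 0.724 CPM), and within PDS5AB, at -1.21 ± 0.29, and also fell in TIR1, at -0.85 ± 0.26. Its relative Sfrp5 fell in TIR1 and WAPL, at -1.34 ± 0.24 and -0.89 ± 0.27. The median of this list in WAPL was -0.63, or -0.36 over the 9 genes that were above 3 counts in some library of both groups.

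Of 12 other Wnt target genes, 6 rose in each of PDS5AB, WAPL and PDS5AB-NIPBL, 4 in WAPL-NIPBL and 2 in TIR1, while 3, 2, 3, 1 and 2 fell in the same order. In TIR1 the largest such rise was that of Cdx2, a caudal-type relative of Cdx1, from 1.45 to 9.90 CPM (2.78 ± 0.23, adjusted p = 9.32e-10). Cdx2 is also a trophoblast marker, and the summed level of the 5 trophoblast markers was 28.4 to 133 CPM over the groups. Treated and untreated libraries did not overlap in this sum: it was higher after treatment in TIR1 (127 to 133 against 74.3 to 81.5 CPM) and PDS5AB (52.04 to 55.4 against 46.2 to 48.5 CPM), and lower in WAPL (28.4 to 31.5 against 77.2 to 93.9 CPM), PDS5AB-NIPBL (30.2 to 34.2 against 50.4 to 56.3 CPM) and WAPL-NIPBL (30.6 to 35.6 against 60.8 to 68.5 CPM). Of 4 tested trophoblast markers, 3 rose in TIR1. Cdx2 also rose in PDS5AB-NIPBL, by 0.69 ± 0.19, although the trophoblast sum fell there. By group, 1 to 3 of the 5 trophoblast markers averaged under 1 CPM. Ccnd1, the gene of cyclin D1, fell in PDS5AB, WAPL and PDS5AB-NIPBL by 1.77, 0.93 and 1.00 on the log2 scale. Of 5 naive pluripotency genes repressed by TCF7L1, all 5 fell in PDS5AB, 3 each in WAPL and PDS5AB-NIPBL, and 2 in WAPL-NIPBL, with 0 rising, and 2 rose and 1 fell in TIR1. Esrrb fell most of them in the degron lines, by 0.81, 0.52, 0.40 and 0.29 in the same order, each with an SE of 0.05; it also fell in TIR1, by 0.15, and is one of the 8 stem cell markers given above.

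**Figure D5:**
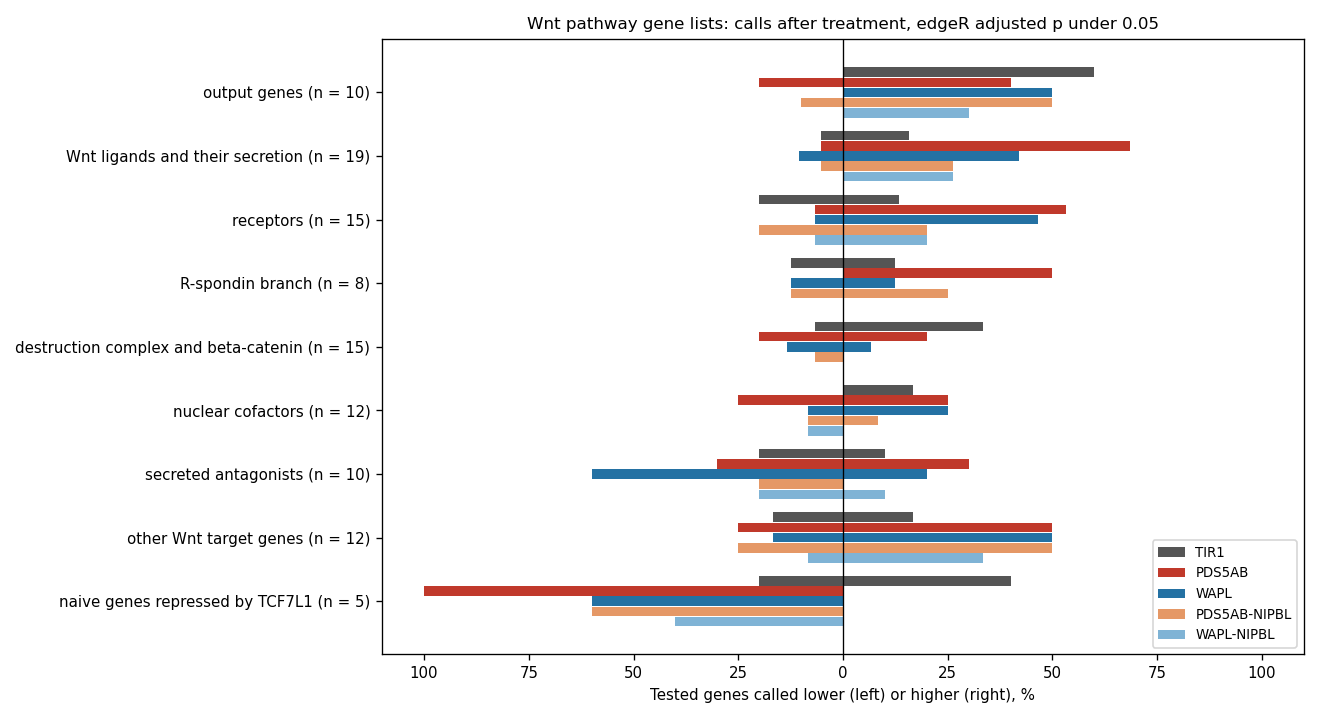
Share of tested genes called lower (left of 0) or higher (right of 0) after treatment, in percent, for the 10 output genes and 8 further Wnt pathway lists in the 5 lines. The number of tested genes stands beside each list. The ligand list reaches 13 of 19 genes higher in PDS5AB, and the naive genes lie to the left in the 4 degron lines.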

How the data were processed

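The authors counted fragments in 30 polyA-selected libraries: the deposited file gives unnormalized fragment counts for each gene, made with featureCounts 2.0.1 on GENCODE vM23 per the file headers. Its recorded command sets no strand option and drops fragments shared by several genes. The submitters' processing notes name STAR 2.7.7a and cutadapt. The exon length per gene, also in the deposited file, gave TPM. Symbols were matched for 55154 of 55421 genes (99.5%), and coordinates are those of the count table.

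Counts were tested with edgeR 4.0.16 in R 4.3.3: filterByExpr (minimum count 10), TMM, a mean for each of 10 groups over all 30 libraries, the quasi-likelihood F-test and Benjamini-Hochberg adjustment over 19868 genes, with calls at an adjusted p under 0.05. SE were derived from the F statistic. Totals of 19632704 to 45539021 fragments and a common biological coefficient of variation of 9.15% set the precision. The labels do not say whether replicates are separate cultures, so p-values measure the spread between these libraries, which may be technical. There were 16 comparisons. The procedure was tested on simulated data.

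Deviations from group means of same-numbered treated and untreated libraries correlated at 0.109 to 0.333 in the 4 degron lines, each pair above 0.1, so the numbers were taken to pair the libraries there; in TIR1 they correlated at -0.01 to 0.06, so no blocked p-value is given for results that include TIR1. Treated TIR1, set apart as a run by its column names and not by a gap in numbers, had no block term. Its spread entered the pooled estimate. A fit with replicate number within runs of library numbers as a block was an alternative, beside DESeq2 1.42.0, RLE size factors, no filter, the compared groups alone and leaving out each library.

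All 10 members could be named in every comparison. From each other pathway list and treatment effect, the called genes with the largest rise and the largest fall (mean of at least 50 counts) could be named, and not every gene so chosen is reported here. The members, the gene lists and the tests were chosen with earlier results of these data known. No other genome sequence was used here, and promoter windows of Cdx1, Lgr5 and Notum were not analysed here.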

Additional observations from a re-analysis of the deposited data

Results flagged for a closer look

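The treatment effect differed between lines, by a test of the difference itself (edgeR's quasi-likelihood test, adjusted over 19868 genes), in 15 results for 7 members. Every difference from TIR1 rests on treated TIR1 libraries that belong to another run of library numbers than untreated TIR1.

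Lef1 accounted for 5 of them. Its log2 effect in PDS5AB differed from that in TIR1 by -2.13 and from that in WAPL by -2.18. The PDS5AB-NIPBL and WAPL-NIPBL effects differed from that in TIR1 by -1.51 and -1.30, and the WAPL-NIPBL effect from that in WAPL by -1.35. Untreated Lef1 levels already differed between the lines, at 1.47 CPM in TIR1, 6.46 CPM in WAPL and 9.43 to 10.3 CPM in the other three.

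Notum accounted for 3. In PDS5AB its effect stood -1.78 from that in TIR1 and -1.78 from that in WAPL, and the PDS5AB-NIPBL effect lay 1.37 above the PDS5AB effect. Fragments shared by Notum and Notumos or Myadml2os on the opposite strand could not be separated by strand, and the recorded command drops them. The 2 opposite-strand genes were themselves counted at up to 8.75 CPM.

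The Dkk1 effect lay above that in TIR1 by 1.18 in PDS5AB and by 1.83 in WAPL. The Cdx1 effect differed from that in TIR1 by -0.88 in PDS5AB and by -0.70 in WAPL. The WAPL-NIPBL effect differed from the TIR1 effect by -0.67 for Axin2 and -0.92 for Sp5. For Tcf7l1 the PDS5AB-NIPBL effect lay 0.55 above the PDS5AB effect.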

How the results depend on the processing

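Here a baseline is an untreated line against untreated TIR1, and "minus" joins 2 treatment effects. The 97 member results followed here were called in the main fit or in at least 1 alternative. Results called nowhere, such as changes near 0, were left out beforehand. Over 1286 alternative values of the 97, no direction reversed, which is partly set by that choice. Of these values, 1113 kept their side of the threshold, 92 lost the call and 81 gained one. Of 64 called results, 21 lost the call in at least 1 alternative: all 21 when a library was left out, 6 in the compared groups alone, 2 with DESeq2, 1 with RLE size factors, and 0 with the replicate block or without the filter on low counts. Counts of members called moved by over 1.5 times as follows; the cause was not tested. In the compared groups alone, 3 were called in the PDS5AB baseline, 1 for PDS5AB-NIPBL minus PDS5AB and 4 for PDS5AB-NIPBL minus TIR1. DESeq2 called 2 for PDS5AB-NIPBL minus TIR1 and 1 for WAPL minus TIR1. Without the filter and with the replicate block, the counts were 5 and 6 for PDS5AB-NIPBL minus PDS5AB, 7 and 8 for PDS5AB-NIPBL minus TIR1, 5 and 5 for WAPL minus TIR1, 5 and 5 for WAPL-NIPBL minus TIR1, 3 and 4 for WAPL-NIPBL minus WAPL, and 5 and 5 for the WAPL-NIPBL treatment effect. The block gave 45 other pathway genes in TIR1 and 38 in WAPL-NIPBL, against 29 and 20; all genes called went from 19.9% to 34% in TIR1 and from 8.57% to 19.7% in WAPL-NIPBL. Over the 7 differences between effects, the share of all tested genes called was 5.19% to 26.3%, 2.72% to 12.4% without the filter, where 40589 genes were tested, and 13.9% to 38.8% with the block. It was 3.96% to 28.2% in the compared groups alone and 6.62% to 27.2% with DESeq2. In the PDS5AB baseline fitted alone 29.5% of all genes were called, and in the WAPL-NIPBL treatment effect without the filter 4.22%. Leaving out 1 library gave 3 to 6 members in the PDS5AB-NIPBL baseline, 2 to 5 in the WAPL baseline, 1 to 3 for PDS5AB-NIPBL minus PDS5AB, 1 to 3 for PDS5AB-NIPBL minus TIR1, 1 to 3 for WAPL minus TIR1, 1 to 4 for WAPL-NIPBL minus TIR1, 1 to 2 for WAPL-NIPBL minus WAPL, and 1 to 5 for the WAPL-NIPBL treatment effect, where the range is set by treated libraries 1 (1 called) and 2 (5 called). The block gained 13 calls among results of the degron lines alone and 17 among results that include TIR1, whose replicate numbers did not pair, and lost 0. Depth limits Lgr5, with at most 24 counts per library.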
